A study of Homo sapiens with 36 samples.

Results

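miR-26 and miR-101 are microRNA (miRNA) families that are both known to repress EZH2, the histone methyltransferase subunit of the Polycomb repressive complex PRC2. Their members were taken as the guide-strand rows of the deposited table whose MirGeneDB names begin with Hsa-Mir-26- or Hsa-Mir-101-. Of 135 listed rows, 5 met this rule. Rows with identical values in all 36 libraries counted once, which left 3 members among 124 distinct rows. Hsa-Mir-26-P1_5p and Hsa-Mir-26-P4_5p were identical and are called miR-26a here, and Hsa-Mir-26-P2_5p is called miR-26b. The identical rows Hsa-Mir-101-P1-v1_3p and Hsa-Mir-101-P2-v1_3p are called miR-101. The other arms of these hairpins were not analysed here.

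Small RNA was sequenced from HEK293T cells, a human embryonic kidney line that expresses SV40 large T antigen and is easily transfected. All cells received the GFP plasmid pEGFP-C1 together with 1 of 6 plasmids: Flag/HA-tagged AGO2, either WT or carrying the variant F182del, N359H, G604R or D619N, or the Flag/HA-empty vector. These variants, 1 deletion of an amino acid and 3 substitutions, were found in individuals reported with the neurodevelopmental Lessel-Kreienkamp syndrome. The paper still classes N359H as of uncertain significance. Tagged AGO2 was immunoprecipitated from each lysate with anti-HA (IP), and a portion of the same lysate was kept as input. This gave 12 conditions with 3 replicates each. The tagged protein was overexpressed from a plasmid in 1 cell line that also makes its own Argonautes, which the input contains and the IP does not select. The labels number the replicates without saying whether they were separate cultures, so the p-values measure only the spread between these libraries.

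A mature miRNA guides Argonaute to messenger RNAs mainly through its seed, bases 2 to 8 counted from the 5′ end, which pairs with sites that lie mostly in 3′ untranslated regions. AGO2 is the Argonaute that can cleave a perfectly paired target. miR-26 genes sit in introns of the CTDSP phosphatase genes, and miR-26 and miR-101 are both described as tumour suppressors in many tissues.

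The mature sequences, from RefSeq (GRCh38.p14), are shown because both miR-26 members have the same seed while miR-101 has another. Capitals mark the seed.
miR-26a-5p: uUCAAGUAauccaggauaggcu
miR-26b-5p: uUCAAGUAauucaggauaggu
miR-101-3p: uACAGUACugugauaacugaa
miR-26a has 22 bases and miR-26b has 21. Over the 21 compared positions, counted from the 5′ end of miR-26a, 19 are identical and the differences are C11U and C21U, both outside the seed. The table itself gives no sequences. The names were matched by family and by the number of genes, since 2 hairpins hold miR-26a-5p, 1 holds miR-26b-5p and 2 hold miR-101-3p, the same numbers as the identical rows. How reads that fit both miR-26a and miR-26b were divided is not given in the sources used here.

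In GRCh38, MIR26A1 lies at chr3:37969404-37969480 on the plus strand in an intron of CTDSPL. MIR26A2 lies at chr12:57824609-57824692 inside a CTDSP2 intron on the minus strand. MIR26B, the gene of miR-26b, lies at chr2:218402646-218402722 on the plus strand in an intron of CTDSP1. MIR101-1 lies at chr1:65058434-65058508 on the minus strand, within no other gene of GENCODE release 29. MIR101-2 lies at chr9:4850297-4850375 on the plus strand in an intron of RCL1. All 4 host genes are transcribed in the same direction as the hairpins they hold.

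The known target EZH2 was scanned for the 7 bases that pair with each seed, TACTTGA for miR-26 and GTACTGT for miR-101, on the messenger strand only. The motifs do not overlap. The 261-base 3′ untranslated region of EZH2 holds 1 match to the miR-26 seed and 2 to the miR-101 seed, which are shown in capitals with up to 8 flanking bases.
EZH2, miR-26 match, chr7:148807385-148807404, minus strand: ataaagaaTACTTGAacttg
EZH2, first miR-101 match, chr7:148807573-148807595, minus strand: aacctcgaGTACTGTgggcaatt
EZH2, second miR-101 match, chr7:148807518-148807540, minus strand: tttgcaaaGTACTGTaagaataa
These matches begin 250, 59 and 114 bases after the stop codon. Among the first 261 bases of the 3′ untranslated regions of 14762 genes that have at least that length, 1.95% hold TACTTGA and 1.4% hold GTACTGT. EZH2 messenger RNA was not measured in these libraries.

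Levels were deposited as RPM, the reads of a miRNA scaled to a fixed total of sequenced reads. Total reads ranged from 16636 to 754009 in the AGO2 IP libraries and from 9395 to 4162450 in their inputs. Mature miRNA reads ranged from 1114 to 29943 and from 423 to 11574, and empty vector IP libraries held only 171 to 197. The shallowest inputs, G604R replicate 1 with 9395 total reads and D619N replicate 1 with 17118, stood apart because mature miRNAs made up 4.50% of the reads in both, against 0.223% to 1.36% in the other AGO2 inputs. Results are therefore also given as a share of all mature miRNA reads, which does not depend on that fraction. Fold changes were fitted with limma on log2(RPM + 1) after scaling, across all detected miRNAs, and a call required an adjusted p under 0.05 with a change of more than 1 on the log2 scale. The added 1 RPM shrinks differences between low values above 0. A library at 0 instead enlarges the fold change, since 1 read was 1.33 to 60.1 RPM in the AGO2 IPs. For miR-26b in D619N IP against WT IP it was -5.09 with 1 RPM added and -2.85 with 10 RPM added.

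miR-26a had the highest level of the 3 members in every input and every AGO2 IP library, but not in all empty vector IPs. In WT-AGO2 IP it stood at 804, 554 and 212 RPM in replicates 1 to 3, and in WT input at 46.8, 20.4 and 21.04 RPM. The ranges did not overlap, as for 76.5% of the 115 miRNAs tested, which were higher in RPM in all WT IP libraries. By level it ranked 18 to 20 among the 124 distinct rows in both fractions. As a share of mature miRNA reads it was 0.884% ± 0.120 (SD, n = 3) in the WT IP and 0.898% ± 0.0442 (n = 3) in the WT input.

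miR-101 measured 204, 146 and 54.8 RPM in the WT IP and 23.1, 7.51 and 10.1 RPM in the WT input. Its share was 0.229% ± 0.0340 in the IP and 0.402% ± 0.0645 in the input, and every IP share lay below every input share. miR-26b was the rarest, at 118, 126 and 32.9 RPM in the WT IP and 16.4, 5.37 and 5.05 RPM in the WT input. The IP values rested on 33, 13 and 9 reads. Its share was 0.157% ± 0.0494 in the IP and 0.254% ± 0.0402 in the input, again without overlap. Of the miRNAs tested, 21.7% lay below the input in all 3 WT IP libraries on this measure.

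**Figure D1:**
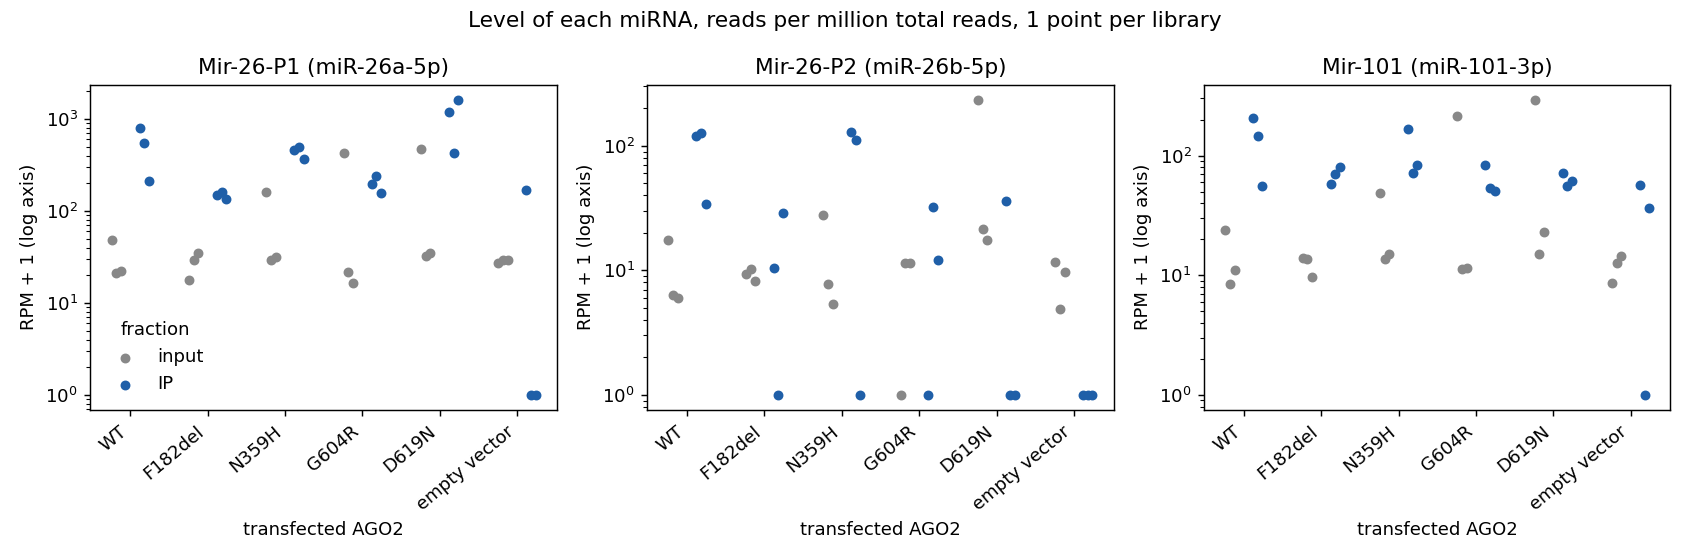
Level of each member in all 36 libraries as RPM + 1 on a log axis, with 1 point per library, input in grey and IP in blue, grouped by the transfected plasmid. A value of 1 on the axis is a library listed at 0. In WT every IP point lies above every input point, and the 3 empty vector IP points of miR-26b are all at 0.

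The empty vector IP measures what the anti-HA procedure recovers without tagged AGO2. miR-26a was listed at 166 RPM in replicate 1, which is 3 reads, and at 0 in the other two, while miR-26b was listed at 0 in all 3. miR-101 had 55.5, 0 and 35.7 RPM, from 1, 0 and 1 reads. Both miR-26 members were called lower than in the WT IP, beside a background of 80.9% of the 110 miRNAs tested. The log2 fold change of miR-26a on unscaled RPM was -6.37 (SE 2.01, limma adjusted p = 0.014), a call lost without any 1 of the 3 WT IP libraries, where adjusted p ranged from 0.062 to 0.095. For miR-26b the adjusted p was 1.4e-05, from 3 values of 0 in libraries where 3 reads correspond to 62.4 to 166 RPM. The 55 miR-26b reads among 656725 in the WT IP stood against 0 among 94127 in the empty vector IP. The 95% counting interval of this ratio was 0 to 0.484 over total reads. Over mature reads it was 0 to 5.37, which includes no difference. Over total reads, the ratio of miR-26a was 0.0616 (95% counting interval 0.0126 to 0.181) and that of miR-101 was 0.160 (0.0191 to 0.597). Over mature reads, of which the empty vector IPs held 543, the ratios were 0.683 (0.140 to 2.01) and 1.78 (0.212 to 6.63), and both intervals include no difference. miR-101 changed by -3.22 (SE 1.66, adjusted p = 0.090). Without empty vector IP replicate 1 it was -4.29 (adjusted p = 0.0084), without replicate 3 it was -3.98 (adjusted p = 0.017), and without replicate 2 it was -1.38 (adjusted p = 0.42). The inputs of empty vector and WT gave 0 calls by limma, with 3 of 96 miRNAs at an unadjusted p below 0.05, a background of 0%. No member was among these 3.

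Across all mature miRNAs the WT IP gained on its input in RPM, with a median log2 fold change of 3.73, and the members followed at 4.01 for miR-26a, 3.17 for miR-101 and 3.19 for miR-26b. The scaled fits remove this common gain and ask which miRNAs were taken up more or less than others. On that scale 12.2% of 115 miRNAs were called between WT IP and WT input, and 0 of the 3 members were, with none at an unadjusted p below 0.05. miR-26a differed by 0.22 (SE 0.24, adjusted p = 0.54), miR-101 by -0.55 (SE 0.34, adjusted p = 0.25) and miR-26b by -0.46 (SE 0.43, adjusted p = 0.45), where the median of all tested miRNAs was 0.31.

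**Figure D2:**
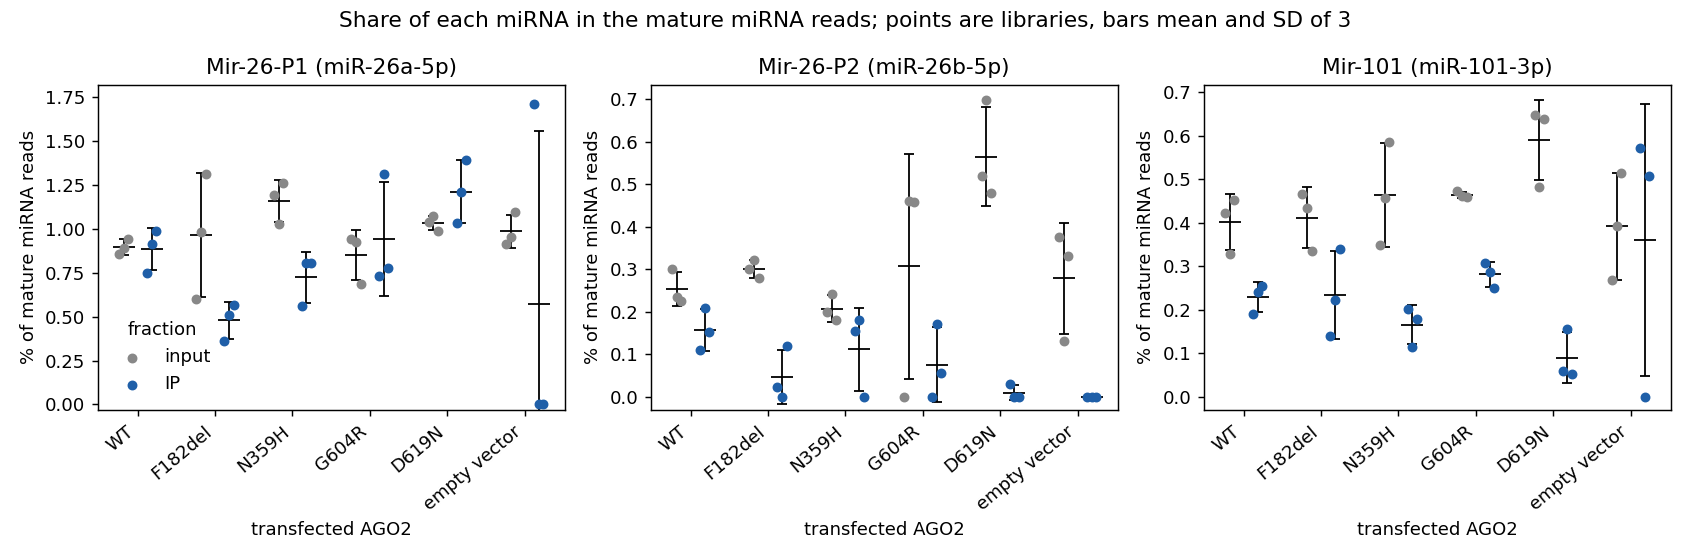
Share of each member in the mature miRNA reads of a library, in percent, by transfected plasmid. Points are libraries, input in grey and IP in blue, and the bars give mean and SD of 3; the vertical scales differ. miR-26a was lowest in the F182del IP among the AGO2 groups (mean 0.479%), while miR-101 and miR-26b were lowest there in the D619N IP (means 0.0893% and 0.00997%).

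The first question for each variant was whether its IP held these miRNAs at another level than the WT IP. For F182del, 6.56% of 122 miRNAs were called and 0 of the 3 members were, although miR-26a and miR-26b had an unadjusted p below 0.05. miR-26a stood at 147, 158 and 133 RPM, all below the lowest WT library, as did 12.3% of the miRNAs tested. Its share of mature reads was 0.359%, 0.510% and 0.567%, also below all WT values (0.751%, 0.915% and 0.986%). Of the miRNAs tested, 9.84% lay below WT in all 3 libraries on this measure. The fitted log2 fold change was -0.90 (SE 0.25, limma adjusted p = 0.053), where the median of all tested was -0.04. Deviations of same-numbered F182del and WT IP libraries correlated weakly (r = 0.33, 0.16 and 0.11), and the labels do not say whether these numbers pair groups. With a replicate block the adjusted p was 0.0051, but the change remained under the size required for a call.

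miR-26b in the F182del IP had 9.47, 0 and 27.9 RPM, from 2, 0 and 21 reads, which in RPM did not overlap with WT but in share did. Its log2 fold change was -2.98 (SE 1.27, adjusted p = 0.23). miR-101 did not follow the miR-26 members: its share was 0.139%, 0.223% and 0.340%, on both sides of the WT range, and its log2 fold change was -0.05 (SE 0.40, adjusted p = 0.94). In the inputs of all 4 variants against WT input, 0% of miRNAs were called by limma, with 8 of 105 at an unadjusted p below 0.05 for F182del, 2 of 100 for N359H, 12 of 97 for G604R and 3 of 95 for D619N. No member was among these.

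Against its own input, the F182del IP was lower in miR-26b. The share was 0.300%, 0.321% and 0.279% in the inputs and 0.0232%, 0% and 0.119% in the IP, without overlap. miR-26a also had a lower share in all 3 IP libraries than in any input, and 19% of the miRNAs tested separated in this direction. The log2 fold change of miR-26b was -2.87 (SE 0.87, limma adjusted p = 0.020), the only member called beside a background of 24% of 121 miRNAs, and its adjusted p was 0.0082 with the lysate as replicate block. This call rests on few reads. It was lost without F182del input replicate 2 (-3.03, adjusted p = 0.082), without IP replicate 1 (-2.69, adjusted p = 0.16) and without IP replicate 2 (-1.79, adjusted p = 0.062). miR-26a changed by -0.65 (SE 0.33, adjusted p = 0.15) and miR-101 by -0.57 (SE 0.41, adjusted p = 0.31). Without F182del input replicate 1, whose share of miR-26a was the lowest of the 3, miR-26a changed by -1.05 (adjusted p = 0.019). Whether the step from input to IP differed from that in WT was tested as an interaction, in which 0.806% of 124 miRNAs were called. It was -0.88 (SE 0.41, adjusted p = 0.35) for miR-26a and -2.55 (SE 1.03, adjusted p = 0.28) for miR-26b, and neither was called.

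For D619N the 3 members lay on different sides of WT. miR-26a stood at 1206, 423 and 1623 RPM in the IP. Its share of 1.03%, 1.21% and 1.39% lay above all WT libraries, as did that of 9.82% of the miRNAs tested. miR-101 had 69.9, 54.6 and 60.1 RPM from 4, 4 and 1 reads, and its share of 0.0598%, 0.157% and 0.0516% lay below all WT libraries. miR-26b was seen in 1 of the 3 libraries, at 34.9 RPM from 2 reads, and was listed at 0 in the others. Its share of 0.0299%, 0% and 0% also lay below all WT libraries, as did that of 28.6% of all miRNAs tested.

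In the fit of D619N IP against WT IP, 16.1% of 112 miRNAs were called, and 0 of the 3 members were, though all 3 had an unadjusted p below 0.05. miR-26a changed by 0.49 (SE 0.18, limma adjusted p = 0.13), with 88.4% of the tested miRNAs at or below it and their median at -1.27. miR-101 changed by -1.47 (SE 0.57, adjusted p = 0.13), close to that median. This closeness depended on the processing. The median was -0.64 with 10 RPM added, -1.82 with 0.1 RPM and -0.75 without D619N IP replicate 3. miR-101 then changed by -1.30, -1.49 and -1.02. miR-26b changed by -5.09 (SE 1.53, adjusted p = 0.083), and 6.25% of the tested miRNAs had a value this low or lower. It passed the threshold without D619N IP replicate 1, the 1 library with reads of it (-6.44, adjusted p = 0.013). Pooled over libraries, 2 reads among 11184 mature reads in D619N against 55 among 42056 in WT gave a ratio of 0.137, with a 95% counting interval from 0.0162 to 0.518.

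The D619N inputs were not low in these miRNAs. miR-26b made up 0.519%, 0.698% and 0.479% of their mature reads and miR-101 0.649%, 0.483% and 0.639%, above all WT inputs (0.227% to 0.300% and 0.329% to 0.453%). miR-26a also lay above them, and so did 5.26% of the 95 miRNAs tested, although 0 miRNAs were called there. The fitted differences from WT input were 0.97 (SE 0.49, adjusted p = 0.74) for miR-26b and 0.41 (SE 0.40, adjusted p = 0.96) for miR-101.

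Between D619N IP and D619N input the members spanned a wide range. miR-26b fell by 5.75 on the log2 scale (SE 1.43, adjusted p = 0.036) and was the only member called, beside a background of 14% of 93 miRNAs. Its 32 reads of input against 2 of IP gave a ratio of 0.0322 of the mature reads, with a counting interval from 0.00374 to 0.126. Over total reads the ratio was 0.666 with an interval from 0.0774 to 2.61. The shares of miR-26b and miR-101 lay below the input in all 3 D619N IP libraries, as did those of 22.6% of the miRNAs tested. miR-101 changed by -2.37 (SE 0.67, adjusted p = 0.052) and miR-26a by 0.69 (SE 0.24, adjusted p = 0.10). The call of miR-26b was lost with the lysate as replicate block (adjusted p = 0.10). It was also lost without input replicate 1 (-5.71, adjusted p = 0.053), replicate 2 (-6.04, adjusted p = 0.081) or replicate 3 (-6.18, adjusted p = 0.061), and without IP replicate 2 (-5.07, adjusted p = 0.075) or replicate 3 (-4.91, adjusted p = 0.11). miR-101 passed without IP replicate 2 (-2.76, adjusted p = 0.022).

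The interaction, which asks whether this step differed from the one in WT, was -5.00 for miR-26b (SE 1.20, limma adjusted p = 0.029) and was called, beside a background of 4.31% of 116 miRNAs. With the lysate as replicate block its adjusted p was 0.10. Leaving out single libraries gave values from -5.82 to -4.29. The call was lost without WT input replicate 2 (-5.15, adjusted p = 0.091) or 3 (-5.15, adjusted p = 0.067) and without WT IP replicate 1 (-5.04, adjusted p = 0.054), 2 (-4.72, adjusted p = 0.13) or 3 (-5.04, adjusted p = 0.074). It was likewise lost without D619N input replicate 2 (-4.98, adjusted p = 0.089) or 3 (-5.24, adjusted p = 0.060) and without D619N IP replicate 2 (-4.41, adjusted p = 0.052) or 3 (-4.29, adjusted p = 0.064). For miR-101 the interaction was -1.84 (SE 0.69, adjusted p = 0.22) and for miR-26a 0.43 (SE 0.30, adjusted p = 0.52).

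**Figure D3:**
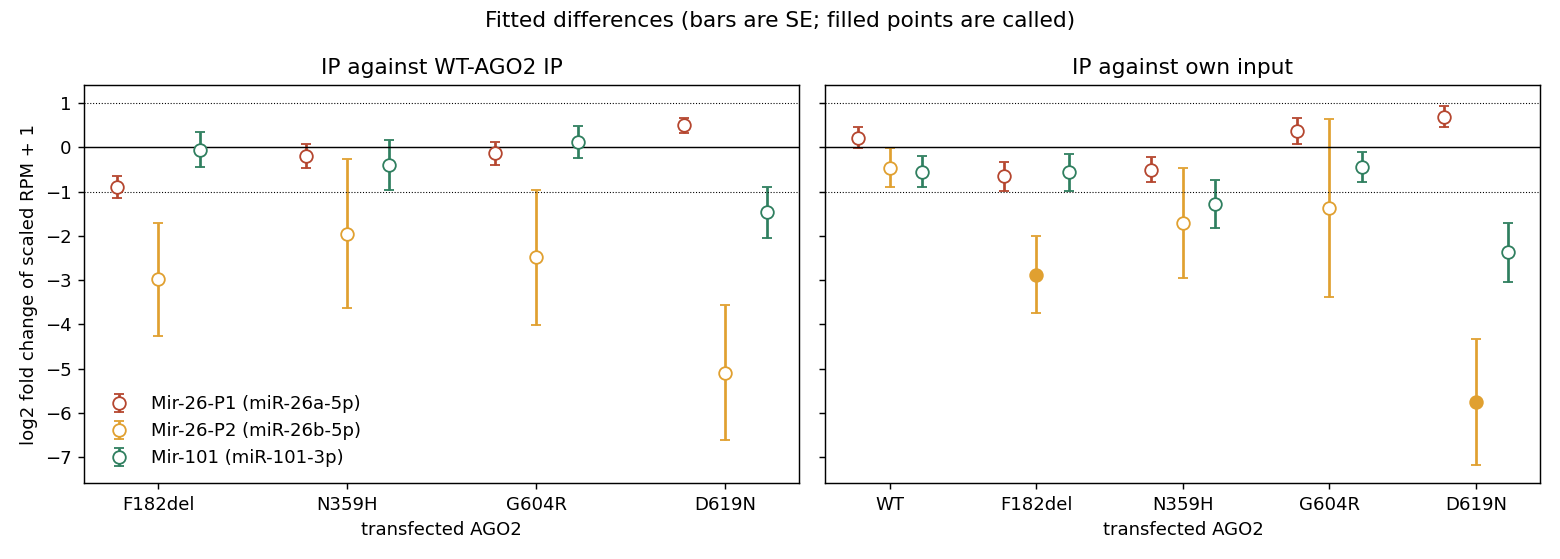
Fitted log2 fold change of scaled RPM + 1 for the 3 members, with SE, for each variant IP against WT-AGO2 IP on the left and for each IP against its own input on the right. Dotted lines mark the size required for a call and filled points are called: miR-26b in F182del (-2.87) and D619N (-5.75) against input. No point is filled against the WT IP.

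In the N359H IP miR-26a measured 461, 494 and 371 RPM, within the WT range. miR-26b had 128, 111 and 0 RPM and miR-101 had 166, 70.6 and 82.5 RPM, each overlapping with WT in level and in share. The fit of N359H IP against WT IP called 0% of 112 miRNAs by limma, with 7 at an unadjusted p below 0.05 and no member among these. The log2 fold changes were -0.21 (SE 0.27, adjusted p = 0.78) for miR-26a, -0.40 (SE 0.57, adjusted p = 0.78) for miR-101 and -1.95 (SE 1.68, adjusted p = 0.78) for miR-26b. The last rested on the 0 of replicate 3, the shallowest of these libraries with 1114 mature reads, and without it was 0.29 (adjusted p = 0.94).

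Against its input, the N359H IP had a lower share of miR-26a (0.559%, 0.806% and 0.808% against 1.19%, 1.03% and 1.26%) and of miR-101 (0.202%, 0.115% and 0.180% against 0.348%, 0.458% and 0.586%), both without overlap, as for 26.6% of the miRNAs tested. In the fit, which called 11.9% of 109 miRNAs, they changed by -0.50 (SE 0.29, adjusted p = 0.21) and by -1.27 (SE 0.55, adjusted p = 0.11), where the median of all was -0.31. miR-26b changed by -1.71 (SE 1.24, adjusted p = 0.32). None was called, and miR-101 alone had an unadjusted p below 0.05. No miRNA was called in the interaction of N359H with the fraction, where 5 of 119 had an unadjusted p below 0.05 by limma and the members none.

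In the G604R IP miR-26a measured 197, 241 and 156 RPM, and its share of 0.730%, 1.32% and 0.780% spanned the WT range. miR-101 had 83.1, 52.5 and 50.0 RPM, with shares of 0.307%, 0.286% and 0.251%. miR-26b was listed at 0, 31.5 and 11.1 RPM, from 0, 3 and 2 reads. In RPM these did not overlap with WT, but in share they did. How many of all miRNAs separated in this way in RPM was not counted. Among 112 miRNAs 5.36% were called against the WT IP, but 0 of the 3 members, none of which had an unadjusted p below 0.05 in limma. miR-26a changed by -0.13 (SE 0.26, adjusted p = 0.80), miR-101 by 0.12 (SE 0.37, adjusted p = 0.85) and miR-26b by -2.49 (SE 1.51, adjusted p = 0.40). On unscaled RPM, where all miRNAs had a median of -1.41, miR-101 changed by -0.96. Against the G604R input, 8.42% of 95 miRNAs were called and again no member, the differences being 0.37 (SE 0.30), -0.45 (SE 0.34) and -1.37 (SE 2.02). miR-101 had the lower share in the IP, against 0.473%, 0.462% and 0.459% in the inputs, without overlap, as for 14.7% of the miRNAs tested. The interaction, with 1.68% of 119 miRNAs called, included no member either, and none had an unadjusted p below 0.05.

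Ordered by mean share in the AGO2 IPs, miR-26a went from D619N (1.21%) over G604R (0.942%), WT (0.884%) and N359H (0.724%) to F182del (0.479%). Neighbours in this order overlapped in range, N359H and F182del by 1 library each. miR-101 went from G604R (0.281%) over F182del (0.234%), WT (0.229%) and N359H (0.165%) to D619N (0.0893%), and miR-26b from WT (0.157%) over N359H (0.112%), G604R (0.0758%) and F182del (0.0474%) to D619N (0.00997%). All neighbours overlapped in these orders as well. In the inputs miR-26a varied from 0.852% in G604R to 1.16% in N359H. The D619N inputs had the highest mean share of miR-101 (0.590%) and of miR-26b (0.565%). For miR-101, however, their range overlapped with those of the N359H and the empty vector inputs. Against the WT inputs, miR-26a was also higher in all N359H inputs, where 7% of 100 miRNAs separated in this way, and miR-101 in all G604R inputs, where 3.09% of 97 did.

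As a sum over both members, the miR-26 family held 1.04% ± 0.156 of the mature reads in the WT IP and 1.15% ± 0.0211 in the WT input. In the F182del IP it held 0.526% ± 0.152 and in its input 1.26% ± 0.346. In the D619N IP it held 1.22% ± 0.166 and in its input 1.60% ± 0.156. miR-26a made up most of each sum.

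The balance within the miR-26 family was described as the share of miR-26b in the reads of both members, a measure that was chosen after the values were seen and is given with no test. It does not depend on the scaling. In WT it was 26.0%, 20.8% and 19.4% in the inputs and 12.8%, 18.6% and 13.4% in the IPs. F182del had 33.3%, 24.6% and 17.5% in the inputs and 6.06%, 0% and 17.4% in the IPs. In N359H it went from 14.3%, 19.0% and 12.5% in the inputs to 21.7%, 18.3% and 0% in the IPs, so 1 lysate rose. In G604R it went from 0%, 33.3% and 40% to 0%, 11.5% and 6.67%. D619N showed the widest gap, with 33.3%, 39.4% and 32.6% in the inputs and 2.82%, 0% and 0% in the IPs.

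Over the 15 lysates with tagged AGO2, the share of miR-26b was lower in the IP than in the input of the same lysate in 13. The mean difference was -15.8 percentage points (SD 15.05, n = 15). Without the pairs whose input had under 20000 reads it was -15.9 points (n = 13), and without pairs in which a library had under 20 miR-26 reads it was -13.6 points (n = 10). By group the difference ran from -1.92 points in N359H over -7.12 in WT, -17.4 in F182del and -18.4 in G604R to -34.2 in D619N. miR-26 reads numbered 9 to 258 in the AGO2 IP libraries and 4 to 147 in their inputs, so single shares are imprecise. The 0% of D619N IP replicate 2, from 31 reads, has a 95% Wilson interval of up to 11.03%. miR-26b never had a value of exactly 1 read, so such values may not be listed. With 1 read in place of every 0 the mean difference was -15.3 points.

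**Figure D4:**
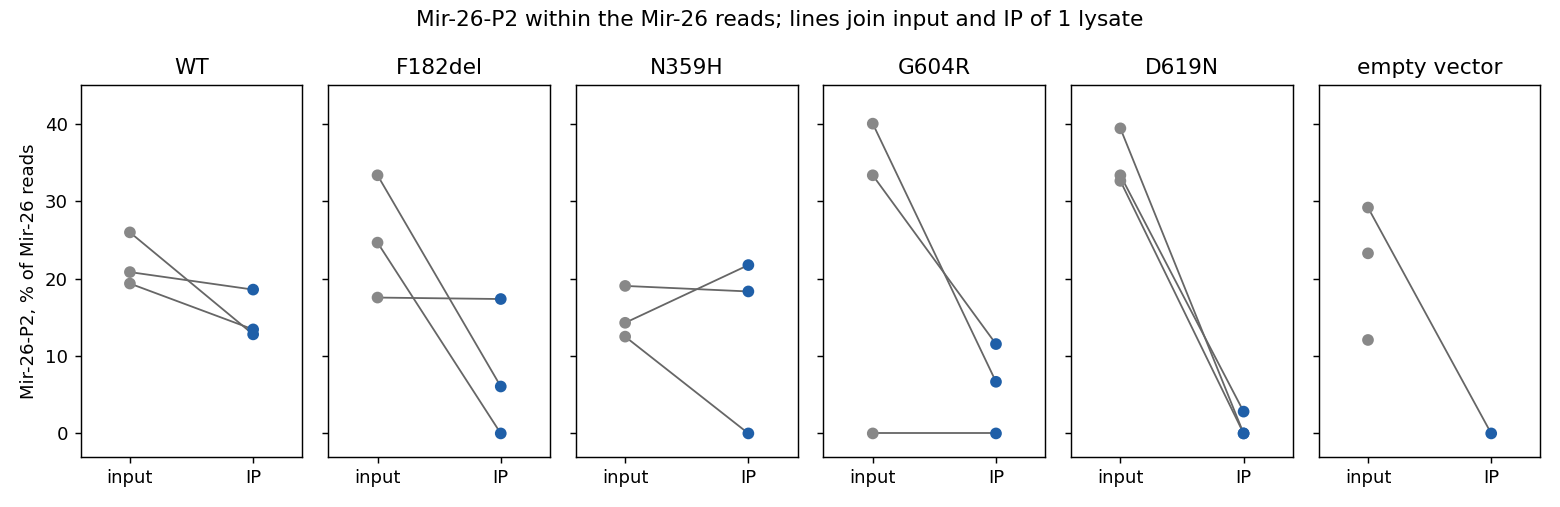
miR-26b (Mir-26-P2) in percent of the reads of both miR-26 members, in input (grey) and IP (blue), with 1 panel per transfected plasmid and lines joining the fractions of 1 lysate. The D619N lines fall from 32.6% to 39.4% in the inputs to 0% to 2.82% in the IPs, whereas the N359H lines cross. Empty vector IPs without any miR-26 read are not drawn.

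Across the 15 AGO2 IP libraries the shares of the members did not run together. Spearman's rho was 0.05 between miR-26a and miR-26b, -0.25 between miR-26a and miR-101 and 0.27 between miR-26b and miR-101. Among the 68 other miRNAs seen in at least 12 of these libraries, the ones most like miR-26a were Hsa-Mir-27-P2_3p (rho 0.82) and Hsa-Mir-22-P1b_3p (0.75). For miR-101 they were the passenger strands Hsa-Mir-221-P1a_5p* (0.85) and Hsa-Mir-130-P3b_5p* (0.83). For miR-26b they were Hsa-Mir-30-P2a_5p (0.58) and Hsa-Mir-345_5p (0.56). Shares of 1 library depend on each other and on its depth, so these are descriptions.

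Other miRNAs described as regulators of EZH2 and related genes were sought as a list of Let-7, Mir-138, Mir-214, Mir-124, Mir-137 and Mir-217 guide rows. The listed rows were all of the Let-7 family, 10 as listed and 9 distinct. Let-7 is a large family known for its role in differentiation and for repressing RAS and LIN28. All 9 were tested in each variant IP against the WT IP and 0 were called. Over all miRNAs tested, 6.56% were called in F182del, 0% in N359H, 5.36% in G604R and 16.1% in D619N. The median log2 fold change of the 9 was 0.09 in F182del, -0.20 in N359H, -0.69 in G604R and -0.42 in D619N. The medians of all tested miRNAs were -0.04, -0.60, -0.42 and -1.27. Between IP and input, Hsa-Let-7-P2c2_5p was called higher in WT and D619N, and Hsa-Let-7-P2a1_5p and Hsa-Let-7-P2a2_5p were called lower in WT, F182del and N359H. Of the Let-7 rows, 9 were tested in WT and N359H, 8 in D619N and 7 in F182del. The share called over all miRNAs was 12.2% in WT, 24% in F182del, 11.9% in N359H and 14% in D619N. No Let-7 row was called in G604R, where 6 of the 9 were tested and 8.42% of all miRNAs were called.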

How the data were processed

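Per the labels and the study's methods, small RNA libraries (TruSeq) of 18 inputs and 18 IPs were processed by the authors with sRNAbench against MirGeneDB and GRCh38, with a minimum mean quality of Phred 20, and deposited as RPM per library. In each library 1 read was taken as the largest step of which every RPM value was a whole multiple (tolerance 0.01 reads). The 100% of values that met it follows from this choice. The step gave reads for depth and Wilson or exact 95% intervals. These cover counting error only, and reads carry no molecular identifiers. Rows with identical values counted once.

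log2(RPM + 1) was tested with limma 3.58.1 (R 4.3.3, trended eBayes, Benjamini-Hochberg) over miRNAs that reached 1 RPM in 2 libraries of either group, after median-of-ratios scaling, except for empty vector IP. The study's count test was not run, since each library held too few low values for the recovered reads to be checked. IP and input of a replicate share a lysate and so are paired (correlation of deviations -0.18 to 0.38). The main fits left this pairing out, and the replicate block is the alternative that includes it. Deviations of same-numbered WT and F182del IP libraries correlated weakly (r = 0.33, 0.16 and 0.11). Scripts were tested on data simulated with a set spread and with 1 RPM added to the means. That test does not show how the fit treats libraries at 0. Alternatives were other pseudocounts (10 and 0.1 RPM), scalings and fits, no filter, a replicate block and single libraries left out. Members and lists were chosen with earlier results of these data known. Named miRNAs were all members, their 2 most alike miRNAs and the EZH2 list. Seed matches were read from GENCODE release 29, in the annotated principal transcript with the longest 3′ untranslated region, leaving out chromosome 8.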

Additional observations from a re-analysis of the deposited data

Results flagged for a closer look

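The step from input to IP was called different between D619N and WT for miR-26b in the fit that left out the lysate pairing. The interaction was -5.00 on the log2 scale (limma adjusted p = 0.029). In D619N miR-26b had 32 reads over the inputs and 2 over the IPs, and in WT 43 and 55, from libraries of unequal depth. Over mature reads the ratio of IP to input was 0.0322 (counting interval 0.00374 to 0.126) in D619N and 0.483 (0.318 to 0.738) in WT. Over total reads the ratio was 0.666 (0.0774 to 2.61) in D619N, an interval that includes no difference. In WT it was 9.14 (6.02 to 13.96) over total reads. The adjusted p of the interaction was 0.10 with a replicate block, which includes the pairing. Leaving out single libraries gave adjusted p from 0.0022 to 0.13, and most of these fits lost the call. It was also lost with 0.1 RPM added and on RPM as deposited. The part of the low depth of D619N IP replicate 3 (16636 total reads) and of D619N input replicate 1 (17118) in this result was not tested beyond leaving each out, which gave -4.29 and -5.00.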

How the results depend on the processing

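Of 523 fold changes refitted under an alternative, 458 kept their direction and their side of the threshold. This count left out the inputs against WT input, except miR-101 and miR-26b in D619N. It also left out the N359H and G604R interactions and miR-101 in the F182del interaction. On RPM as deposited, which keeps the common gain of the IPs, the differences between IP and input turned positive for miR-101 and miR-26b in WT (3.17 and 3.19), for miR-26a and miR-101 in F182del (2.48 and 2.49), for all members in N359H (3.05, 2.22 and 1.22), for miR-101 and miR-26b in G604R (1.02 and 0.53) and for miR-101 in D619N (0.42). Medians of all miRNAs there were 1.97 to 3.73, against which these values are to be read. This scaling called 3 members in WT, 2 in F182del, 1 in N359H and 0 in D619N. The calls of miR-26b against input were lost under it (-0.46, adjusted p = 0.69 in F182del and -3.75, adjusted p = 0.19 in D619N), and the members called in F182del were miR-26a and miR-101, higher in the IP. It also turned miR-101 in the G604R IP against WT to -0.96 and the D619N interaction of miR-26a to -0.47, and gave 0 called members in that interaction. Values near 0 changed sign elsewhere: miR-101 in the F182del IP was 0.0102 with identical rows kept and 0.13 with all AGO2 groups in 1 fit, miR-26a in the G604R IP was 0.0482 scaled to summed mature RPM and 0.0334 in 1 fit, and miR-26a in WT IP against input was -0.0303 scaled to summed mature RPM.

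Members called moved as follows. A pseudocount of 10 RPM gave 1 for D619N IP against WT and 2 against input, and 0.1 RPM gave 0 for F182del and D619N against input and 0 for the D619N interaction. D619N against input had 0 without the filter, 2 scaled to summed mature RPM and 2 with identical rows kept. Empty vector IP had 1 under either scaling. With the replicate block D619N against input and the D619N interaction had 0, and no other count moved. Deviations of same-numbered inputs correlated positively with those of WT in every group, from 0.0138 in D619N to 0.353 in G604R. In the N359H, G604R, D619N and empty vector IPs the correlations with WT lay between -0.14 and 0.16. The labels do not say whether replicate numbers pair groups.

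Leaving out 1 library gave 0 to 1 called members for D619N IP against WT, 0 to 2 for F182del and 0 to 1 for D619N against input, 0 to 1 for the D619N interaction and 1 to 3 for empty vector IP. Fold changes that turned ranged from -0.28 to 0.18 (miR-101, F182del IP), -3.08 to 0.29 (miR-26b, N359H IP) and -0.35 to 0.0156 (miR-26a, G604R IP), and from -2.45 to 0.12 (miR-26b, N359H against input). The family shares recomputed with 1 library left out stayed within 1 SD, which a mean of 3 values cannot fail to do. Each group kept 2 libraries in these fits. Depth limits these results: 3 reads correspond to 3.98 to 180 RPM in the AGO2 IPs, so a value of 0 there does not exclude levels up to that size. The causes of these changes were not tested.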
